A study of Saccharomyces cerevisiae with 8 samples.

Results

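AAH1 and 8 ADE genes of the purine pathway of Saccharomyces cerevisiae were followed through the response to NaCl, 9 of the 6868 features on the arrays. AAH1 was picked because its mean log ratios in cdc14-3 and cdc14-3 snf1 were the deepest on these same arrays, and the ADE genes were picked with values of these arrays known, so the levels of all 9 are described here and not tested. All 9 had a value on all 8 arrays and passed the filter of at least 2 values per strain, which kept 6135 features.

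Each array compared NaCl-treated with unstressed cells of 1 strain. The strains were cdc14-3 snf1 (3 arrays), cdc14-3 (2 arrays) and snf1 (3 arrays), all in the W303 background. The question behind the series is what part Snf1 takes in the NaCl response of cells without working Cdc14. cdc14-3 is a temperature-sensitive allele of CDC14, whose phosphatase drives exit from mitosis, and snf1 marks a mutation of the yeast AMP-activated kinase Snf1, which adjusts metabolism when glucose or energy runs short. Every strain grew in rich YPD at 25 °C and was moved to 35 °C, the temperature that inactivates the cdc14-3 product. After 90 min at 35 °C (replicate 1 of cdc14-3 snf1 and replicate 1 of snf1) or 2 h (the other 6 arrays) unstressed cells were taken, and NaCl was then present at 0.7 M for 30 min at 35 °C. Both cdc14-3 arrays are from the 2 h schedule, no wild-type array was analysed here, and both strains of every comparison carry at least 1 of the 2 mutations. W303 strains usually carry a mutation in ADE2, and the ADE2 genotype of these strains is not given in the sources used here.

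Purines are built on phosphoribosyl pyrophosphate (PRPP) in a chain of steps that ends at IMP, from which one branch leads to AMP and another to GMP. Cells that can take up adenine save this cost: adenine is joined to PRPP directly, or Aah1, adenine deaminase, first turns it into hypoxanthine, which opens the route to GMP. The transcription factors Bas1 and Pho2 switch on the ADE genes when purine nucleotides run low, and adenine in the medium keeps those genes low.

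A log2 ratio below 0 means less RNA after NaCl, relative to the median of the array. The dyes ran the same way on all 8 arrays. The direction and the base of the logarithm are not stated beside the values. Base 2, the usual base for such arrays, was taken here, and every log2 value and fold rests on it. NaCl over unstressed is the likely direction, since all 6 genes known to be induced by NaCl that were looked up (STL1, GPD1, GPP2, GRE2, CTT1 and HSP12) lay above 0 on all 8 arrays, and the mean of 137 ribosomal protein genes lay below 0 on all 8. The arrays held 6165 to 6776 values each, and the SD of their log2 ratios was 0.72 to 1.10. With bulk RNA, fewer responding cells and a smaller response per cell cannot be told apart.

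AAH1 (YNL141W) had log2 ratios of -2.33, -3.58 and -3.0 in cdc14-3 snf1 cells (replicates 1, 2 and 3), -4.41 and -4.04 in cdc14-3 cells (replicates 2 and 3) and -2.24, -1.33 and -1.12 in snf1 cells (replicates 1, 2 and 3). No array of one strain overlapped with those of another: cdc14-3 lay lowest, cdc14-3 snf1 in between and snf1 highest. Of all features, 18.8% lay wholly above in cdc14-3 snf1 against cdc14-3. Wholly below lay 10.0% in cdc14-3 snf1 against snf1 and 27.1% in cdc14-3 against snf1. The highest cdc14-3 snf1 array of AAH1, at -2.33, and its lowest snf1 array, at -2.24, lay close together. Averaged over 3 cdc14-3 snf1 arrays the log2 ratio was -2.97 (SD 0.63), 7.84-fold less AAH1 RNA after NaCl. The 2 cdc14-3 arrays averaged -4.23 (SD 0.26), 18.7-fold less, and the 3 snf1 arrays -1.56 (SD 0.59), 2.96-fold less. Among the 6135 features the AAH1 mean ranked 1 from the lowest in cdc14-3 snf1, 1 in cdc14-3 and 28 in snf1. On single arrays AAH1 was ranked among every value of the array, 6165 to 6776 of them, without the filter. It was the lowest of all or close to it where CDC14 was mutated, with ranks of 15, 3 and 1 in cdc14-3 snf1 and 1 and 2 in cdc14-3. In snf1 the ranks were 19, 132 and 134. The arrays held for 90 min ranked close to each other, 15 in cdc14-3 snf1 and 19 in snf1.

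The strain means of AAH1 differed by 1.25 for cdc14-3 snf1 minus cdc14-3, by -1.41 for cdc14-3 snf1 minus snf1 and by -2.66 for cdc14-3 minus snf1 (differences of log2 ratios). The arrays after 90 min gave almost the same ratio in both strains that had one, with a difference of -0.09 for cdc14-3 snf1 minus snf1. On the 2 h arrays alone, the same difference was -2.07, that of cdc14-3 snf1 minus cdc14-3 was 0.93 and that of cdc14-3 minus snf1 was -3.0. Each of those strains had only 1 array after 90 min and cdc14-3 had none, so heat time and that array cannot be told apart.

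**Figure D1:**
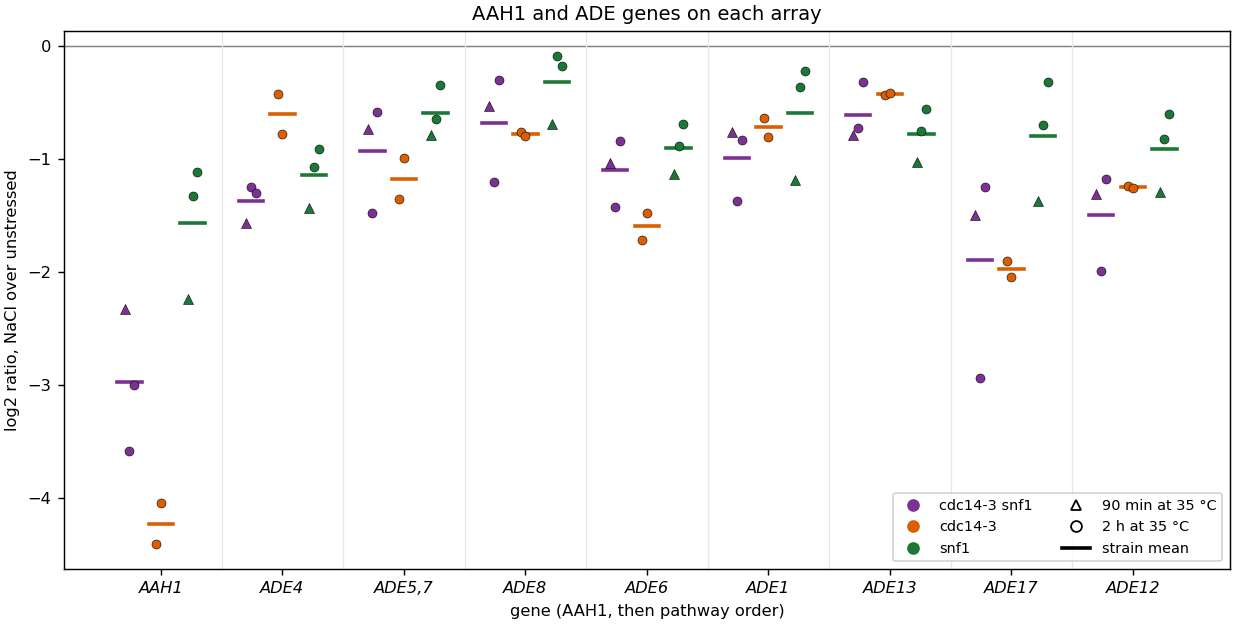
Log2 ratios of NaCl-treated over unstressed cells for AAH1 and the 8 ADE genes, 1 point per array, triangles for 90 min and circles for 2 h at 35 °C, bars for strain means of 3 cdc14-3 snf1, 2 cdc14-3 and 3 snf1 arrays. All 72 points lie below 0, and AAH1 is lowest in cdc14-3, with means of -2.97 in cdc14-3 snf1, -4.23 in cdc14-3 and -1.56 in snf1.

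The 8 ADE genes lay below 0 on all 8 arrays, which 24.4% of the 6135 features did. Taken strain by strain, 38.7% of features lay below 0 on every cdc14-3 snf1 array, 43.4% on every cdc14-3 array and 36.7% on every snf1 array. The median response of the 8 ADE genes was -1.04 in cdc14-3 snf1, -0.98 in cdc14-3 and -0.79 in snf1, where the medians of all features were -0.03, -0.00497 and -0.06. They are given in the order of the pathway.

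ADE4 (YMR300C), the PRPP amidotransferase of the first committed step, had log2 ratios of -1.57, -1.25 and -1.31 in cdc14-3 snf1, -0.43 and -0.78 in cdc14-3 and -1.44, -1.07 and -0.92 in snf1. Unlike for AAH1, both cdc14-3 arrays lay above all arrays of the other strains.

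ADE5,7 (YGL234W) encodes one protein with the activities of 2 steps, glycinamide ribotide synthetase and aminoimidazole ribotide synthetase. Its log2 ratios were -0.74, -1.48 and -0.58 in cdc14-3 snf1, -1.36 and -1.0 in cdc14-3 and -0.79, -0.65 and -0.35 in snf1. The cdc14-3 arrays lay below the snf1 arrays, and the cdc14-3 snf1 arrays overlapped with both.

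ADE8 (YDR408C), the glycinamide ribotide transformylase, which uses a folate one-carbon unit, had -0.53, -1.21 and -0.30 in cdc14-3 snf1, -0.77 and -0.79 in cdc14-3 and -0.69, -0.09 and -0.18 in snf1. Both cdc14-3 arrays lay just below the lowest snf1 array. ADE6 (YGR061C), the synthetase that acts after Ade8, had -1.04, -1.42 and -0.84 in cdc14-3 snf1, -1.71 and -1.48 in cdc14-3 and -1.13, -0.89 and -0.69 in snf1. Its cdc14-3 arrays lay below every array of the other strains, as those of AAH1 did.

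ADE1 (YAR015W), which adds aspartate to the growing ring, had -0.76, -1.37 and -0.84 in cdc14-3 snf1, -0.64 and -0.81 in cdc14-3 and -1.19, -0.37 and -0.22 in snf1. The arrays of the 3 strains overlapped. ADE13 (YLR359W), adenylosuccinate lyase, acts both on the way to IMP and on the way from IMP to AMP, and it had -0.79, -0.72 and -0.32 in cdc14-3 snf1, -0.43 and -0.42 in cdc14-3 and -1.02, -0.76 and -0.56 in snf1. Here the cdc14-3 arrays lay above the snf1 arrays, as for ADE4.

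ADE17 (YMR120C) encodes the enzyme that closes the ring to IMP, an activity it shares with ADE16. Its log2 ratios were -1.49, -2.93 and -1.25 in cdc14-3 snf1, -1.91 and -2.05 in cdc14-3 and -1.37, -0.70 and -0.32 in snf1, the lowest mean of the 8 in cdc14-3 snf1 and in cdc14-3. ADE12 (YNL220W), adenylosuccinate synthase, which takes IMP towards AMP, had -1.31, -1.99 and -1.18 in cdc14-3 snf1, -1.24 and -1.25 in cdc14-3 and -1.29, -0.83 and -0.61 in snf1. Its cdc14-3 arrays lay within the range of the other strains.

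As folds, the strain means of the ADE genes were 1.53-fold (ADE13) to 3.71-fold (ADE17) less RNA after NaCl in cdc14-3 snf1, 1.34-fold (ADE13) to 3.94-fold (ADE17) less in cdc14-3 and 1.25-fold (ADE8) to 2.21-fold (ADE4) less in snf1. AAH1 was thus further from 0 than any ADE gene in each strain. On single arrays the AAH1 log2 ratio minus the median of the ADE genes was -1.42, -2.19 and -2.16 in cdc14-3 snf1, -3.40 and -3.14 in cdc14-3 and -1.08, -0.60 and -0.67 in snf1.

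Between strains, the 8 ADE genes shifted less than AAH1 and not all one way. For cdc14-3 snf1 minus cdc14-3 the median difference was -0.05, with 4 genes above 0 and 4 below, and it ran between -0.28 and 0.18 as single arrays were left out, so its sign is not settled. The cdc14-3 snf1 arrays lay wholly below those of cdc14-3 for ADE4, as 17.0% of all features did, and wholly above for ADE6, as 18.8% did. For cdc14-3 snf1 minus snf1 the median difference was -0.35, with 7 genes below 0, and the arrays of all 8 genes overlapped, where 10.0% of all features lay wholly below and 9.01% wholly above. That median ran between -0.49 and -0.15 as single arrays were left out (-0.15 without cdc14-3 snf1 replicate 2) and was -0.58 on the 2 h arrays. For cdc14-3 minus snf1 it was -0.40, between -0.59 without snf1 replicate 1 and -0.29 without snf1 replicate 3. There ADE5,7, ADE6, ADE8 and ADE17 had cdc14-3 arrays wholly below the snf1 arrays, and ADE4 and ADE13 wholly above. Of all features, 27.1% were wholly below and 25.2% wholly above in that pair.

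The largest differences among the ADE genes were those of ADE17, -1.09 for cdc14-3 snf1 minus snf1 and -1.18 for cdc14-3 minus snf1. With the 2 h arrays alone they were -1.58 and -1.46. On those 6 arrays, 5 ADE genes (ADE1, ADE4, ADE8, ADE12 and ADE17) lay wholly lower in cdc14-3 snf1 than in snf1, beside 36.5% of all features, and none lay wholly higher, as 29.5% of all features did. In cdc14-3 against snf1, 6 lay wholly lower, beside 37.9% of all features, and ADE4 and ADE13 wholly higher, beside 33.6%. In cdc14-3 snf1 against cdc14-3, ADE1 and ADE4 lay wholly lower, beside 21.6%, and ADE6 wholly higher, beside 23.0%.

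**Figure D2:**
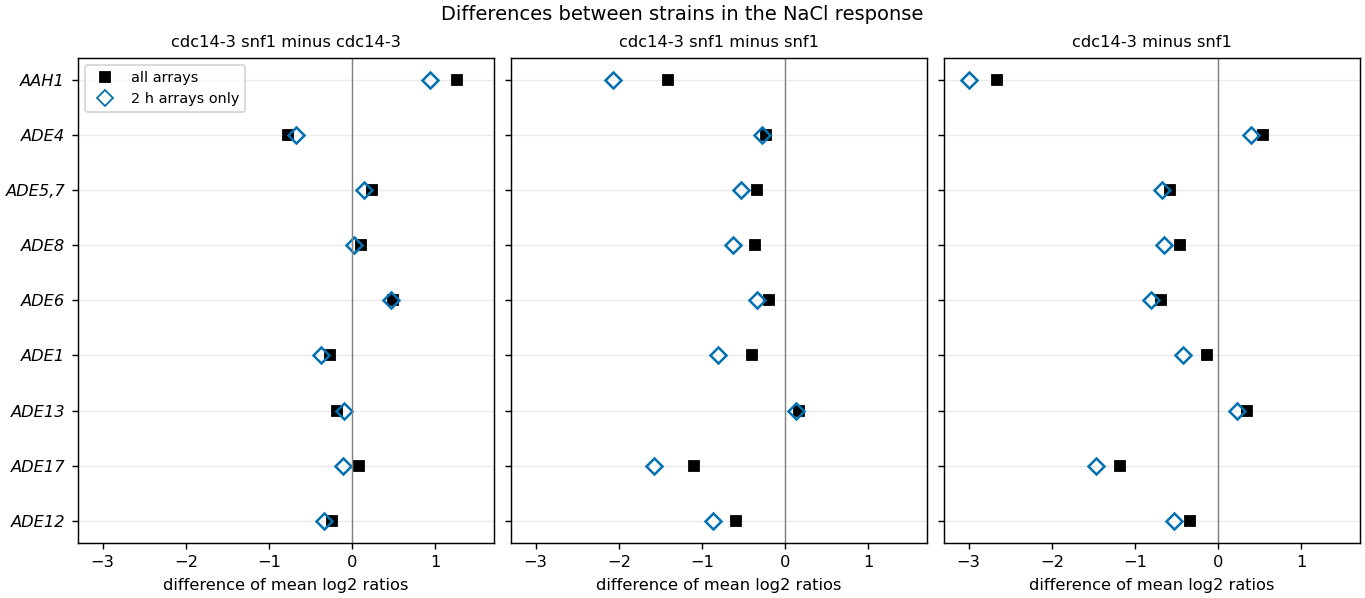
Differences between strain means of the log2 ratio (x axis, log2 units) for AAH1 and the 8 ADE genes, filled squares from all arrays and open diamonds from the 2 h arrays alone, 1 panel per pair of strains. AAH1 stands furthest from 0 in each panel, at 1.25, -1.41 and -2.66 with all arrays, and ADE4 and ADE13 lie above 0 in the panel of cdc14-3 minus snf1, where the other 7 genes lie below.

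Replicate 1 of snf1, held for 90 min, was the lowest of the snf1 arrays for all 9 genes, and the same array was the lowest for 43.9% of 6102 features. Its ribosomal protein mean was also the lowest, at -1.56, against -0.51 and -0.38 in snf1 replicates 2 and 3. Among the cdc14-3 snf1 arrays, replicate 2 was the lowest for 7 of the 9 genes, as for 33.4% of 6118 features, and replicate 1 for the other 2, ADE4 and ADE13. The ribosomal protein means of cdc14-3 snf1 replicates 1, 2 and 3 were close, at -1.24, -1.11 and -1.22, as were those of cdc14-3 replicates 2 and 3, at -1.04 and -1.38. The part of these array differences in the values of the 9 genes was not tested.

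Over the 8 arrays, which share strains and heat times, Pearson's r between AAH1 and single ADE genes ran from -0.462 (ADE13) to 0.889 (ADE6), with a median of 0.693. ADE4 was also negative, at -0.433. The 28 pairs among the ADE genes ran from -0.507 (ADE4 with ADE6) to 0.952 (ADE8 with ADE17), with a median of 0.598. ADE4 and ADE13 correlated with each other at 0.59 and with AAH1, ADE5,7, ADE6 and ADE17 at values below 0, some of them close to 0 (-0.029 for ADE13 with ADE5,7).

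The 5 genes whose log ratios were most like those of AAH1, among 5688 named genes with values on all 8 arrays, were NUG1 (r = 0.996), LIA1 (0.994), PHO3 (0.993), MES1 (0.99) and PHO11 (0.988). NUG1 encodes a GTPase of large ribosomal subunit assembly, LIA1 deoxyhypusine hydroxylase, MES1 methionyl-tRNA synthetase, and PHO3 and PHO11 acid phosphatases. PHO3, for example, had -1.72, -3.09 and -2.06 in cdc14-3 snf1, -3.60 and -3.39 in cdc14-3 and -1.62, -0.55 and -0.50 in snf1, in the same order of strains as AAH1. PHO11 belongs to a set of near-identical phosphatase genes whose probes may share signal.

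None of these 5 is an enzyme of purine synthesis. The genes most like the mean of the 8 ADE genes were HIS1 (r = 0.986), BAT1 (0.983), SHM2 (0.971), GGC1 (0.968) and HOM3 (0.965). They encode the first enzyme of histidine synthesis, the mitochondrial branched-chain aminotransferase, the cytosolic serine hydroxymethyltransferase, the mitochondrial GTP/GDP carrier and aspartate kinase. BAT1 had -1.44, -2.42 and -1.33 in cdc14-3 snf1, -1.47 and -1.51 in cdc14-3 and -1.75, -0.70 and -0.39 in snf1, so that, unlike AAH1, its lowest array was cdc14-3 snf1 replicate 2.

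**Figure D3:**
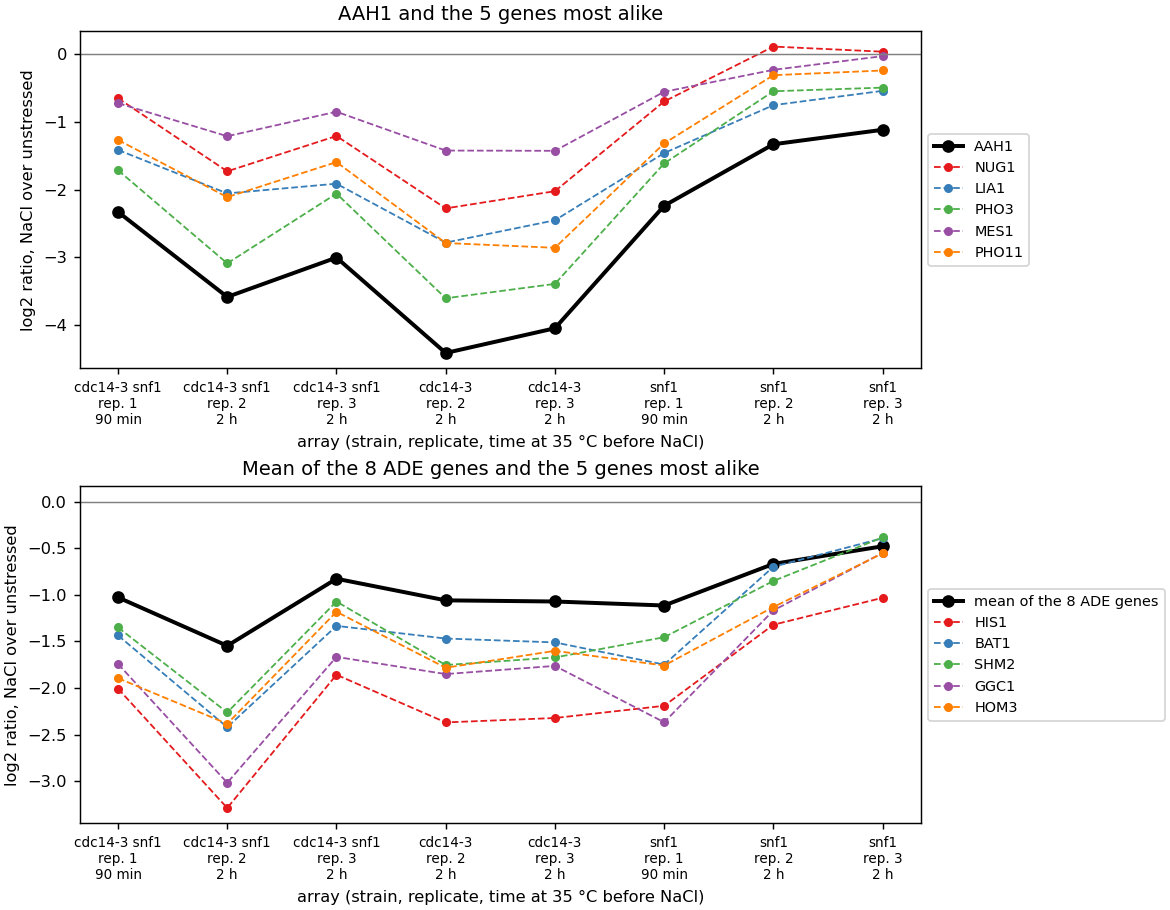
Log2 ratios on the 8 arrays (x axis) for AAH1 with its 5 most alike genes (top) and for the mean of the 8 ADE genes with its 5 most alike genes (bottom); lines join arrays only to guide the eye. The AAH1 set is lowest on the cdc14-3 arrays, where AAH1 reaches -4.41, and the ADE set is lowest on cdc14-3 snf1 replicate 2, where HIS1 reaches -3.29.

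The rest of the pathway, 42 genes outside the 9, was tested with limma, with adjusted p-values over all 6135 features. The lists of these genes, and of the pyrimidine genes below, were also drawn up with earlier results of these data known. Their shares of calls beside those of all features are therefore a description and no independent test. The labels number the replicates without naming cultures, so the p-values measure only the spread between these samples. In cdc14-3 snf1, 27 of the 42 fell and 4 rose at an adjusted p under 0.05, while 25.5% of all features fell and 20.6% rose, 46.1% in all. In cdc14-3, 21 fell and 4 rose, beside 22.0% and 18.3% of all features, 40.3% in all. In snf1, 22 fell and 2 rose, beside 27.0% and 24.3%, 51.3% in all. The share of the 42 that fell was 64.3% in cdc14-3 snf1, 50.0% in cdc14-3 and 52.4% in snf1. The counts of the single lists below stand beside the same shares of all features that fell, 25.5%, 22.0% and 27.0%. Leaving out 1 array at a time kept 18 of the 31 calls in cdc14-3 snf1, 13 of the 25 in cdc14-3 and 15 of the 24 in snf1 in every fit, and without either cdc14-3 array the count in cdc14-3 was 14. Without snf1 replicate 1 the count in snf1 was 16. The shares of all features called in these fits are not given here, so a shift of all features would look the same.

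Of the other synthesis enzymes, ADE3, the cytosolic enzyme that makes the folate one-carbon units, fell, with means of -1.01 in cdc14-3 snf1, -1.03 in cdc14-3 and -0.84 in snf1 (limma adjusted p = 0.00079, 0.0019 and 0.00161), and these calls held with any 1 array left out. ADE2, the carboxylase between Ade5,7 and Ade1, had log2 ratios of -0.08, -0.98 and -0.57 in cdc14-3 snf1, -0.26 and -0.29 in cdc14-3 and 0.17, 0.10 and -0.22 in snf1. It fell in cdc14-3 snf1 (-0.55, adjusted p = 0.0253), a call lost without replicate 2 or replicate 3 of that strain (adjusted p up to 0.189), and it did not pass in cdc14-3 (-0.27, adjusted p = 0.324) or snf1 (0.02, adjusted p = 0.938).

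ADE16, the isozyme of ADE17, differed between strains in the other direction for cdc14-3 minus snf1. Its log2 ratios were -0.65, -0.18 and -0.37 in cdc14-3 snf1, 0.05 and -0.09 in cdc14-3 and -0.74, -0.68 and -0.83 in snf1. The cdc14-3 arrays lay close to 0 and above the arrays of both other strains, while ADE17 averaged -1.98 there. ADE16 fell in snf1 (-0.75, adjusted p = 0.0013) and in cdc14-3 snf1 (-0.40, adjusted p = 0.027), the second call being lost without replicate 1 or 3 of cdc14-3 snf1 or replicate 2 of cdc14-3 (adjusted p up to 0.155). For cdc14-3 minus snf1, ADE16 was higher by 0.73 (SE 0.20, limma adjusted p = 0.0344) and ADE17 was at -1.18. This ADE16 call was kept in only 3 of the 8 fits that left out 1 array. It was lost without cdc14-3 snf1 replicate 3, either cdc14-3 array, or snf1 replicate 2 or 3. The ADE16 difference ran from 0.66 to 0.80 in those 8 fits. Probes of the isozymes may share signal, since their sequences are alike, and how probes were assigned is not given in the sources used here.

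**Figure D4:**
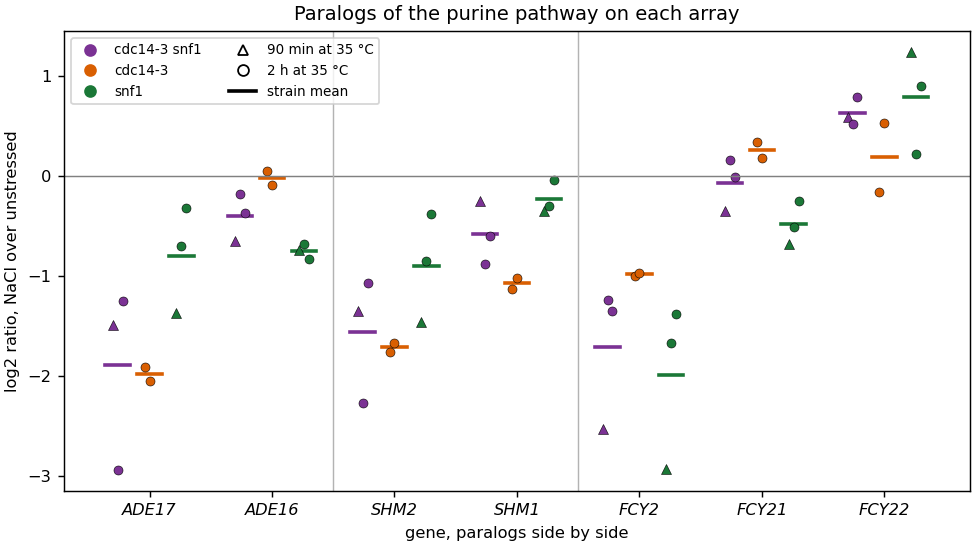
Log2 ratios per array of paralogs in the pathway, with triangles for 90 min, circles for 2 h and bars for strain means of 3 cdc14-3 snf1, 2 cdc14-3 and 3 snf1 arrays. In cdc14-3, ADE17 averaged -1.98 and ADE16 -0.02, SHM2 -1.71 and SHM1 -1.07, and FCY2 -0.98, FCY21 0.26 and FCY22 0.19.

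PRPP, the starting material, is made by the PRS synthetases. Of the 5, 4 fell in cdc14-3 snf1 (all but PRS2), 4 in cdc14-3 and 3 in snf1 (PRS1, PRS3 and PRS5). PRS1 averaged -1.13, -1.16 and -1.30 in cdc14-3 snf1, cdc14-3 and snf1, and PRS3 -1.04, -1.32 and -0.77. The calls of PRS4 and PRS5 in cdc14-3 were lost without either cdc14-3 array (adjusted p up to 0.128 and 0.0968), and that of PRS4 in cdc14-3 snf1 without its replicate 3 (adjusted p = 0.0808).

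All 5 genes of the GMP branch fell in cdc14-3 snf1 and in cdc14-3, and 4 in snf1, where GUK1, guanylate kinase, was at -0.40 (adjusted p = 0.0789). IMD4, an IMP dehydrogenase, averaged -1.56 in cdc14-3 snf1, -2.16 in cdc14-3 and -1.37 in snf1, lower than its paralogs IMD2 and IMD3 in each strain, whose probes may share signal with it. GUA1, GMP synthase, had -1.27, -1.73 and -1.23 in cdc14-3 snf1, -1.94 and -1.92 in cdc14-3 and -1.22, -0.73 and -0.62 in snf1. The cdc14-3 arrays of GUA1 were the lowest and those of snf1 the highest, in the order seen for AAH1. Its lowest snf1 array, at -1.223, and its highest cdc14-3 snf1 array, at -1.229, were almost level. With all arrays the difference of GUA1 for cdc14-3 snf1 minus snf1 did not pass (limma adjusted p = 0.236). In cdc14-3, the calls of IMD3 and GUK1 were lost without either array and that of IMD2 without replicate 3 (adjusted p up to 0.0745, 0.291 and 0.0525). The call of IMD2 in snf1 was lost without replicate 1 (adjusted p = 0.0646) and that of GUK1 in cdc14-3 snf1 without replicate 2 or 3 (adjusted p up to 0.0827).

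In the salvage and breakdown list, 6 of 12 fell in cdc14-3 snf1, 4 in cdc14-3 and 5 in snf1. HPT1, which joins hypoxanthine, the product of Aah1, or guanine to PRPP, averaged -1.93 in cdc14-3 snf1, -1.41 in cdc14-3 and -2.13 in snf1, all past the test. In cdc14-3 that call was lost without either array (adjusted p up to 0.121), and the 4 calls of the list in that strain came to 2. In snf1 the calls of MEU1, XPT1 and ADK1, described below, were lost without replicate 1, and those of MEU1 and XPT1 without replicate 2. HPT1 was therefore at -2.13 in snf1, where AAH1 was at -1.56, and at -1.41 in cdc14-3, where AAH1 was at -4.23. The difference of HPT1 for cdc14-3 minus snf1, 0.72 (SE 0.43), did not pass (limma adjusted p = 0.26). It was 0.31 on the 2 h arrays alone, since snf1 replicate 1, held for 90 min, was at -2.95, against -1.76 and -1.67 in snf1 replicates 2 and 3.

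APT2, a paralog of the adenine phosphoribosyltransferase APT1, fell in all 3 strains, with means of -1.31, -1.16 and -1.16 in cdc14-3 snf1, cdc14-3 and snf1. APT1, which uses adenine directly, fell in cdc14-3 snf1 (-0.57, adjusted p = 0.0201), and its means in cdc14-3 and snf1 were -0.52 and -0.32 (adjusted p = 0.0679 and 0.131). MEU1, which releases adenine from methylthioadenosine, averaged -0.95, -1.13 and -0.49 and passed in each. SAH1, which splits S-adenosylhomocysteine, averaged -0.59 and -1.11 in cdc14-3 snf1 and cdc14-3 and passed in both, and was at -0.16 in snf1 (adjusted p = 0.421). Leaving out single arrays of the strain itself ended the calls of APT2 in cdc14-3 (adjusted p up to 0.0852), APT1 in cdc14-3 snf1 (up to 0.118, without replicate 1 or 3), SAH1 in cdc14-3 snf1 (0.0919, without replicate 2) and MEU1 in snf1 (up to 0.118, without replicate 1 or 2). XPT1, xanthine phosphoribosyltransferase, lost its snf1 call without those same arrays (up to 0.144) and kept its call in cdc14-3 snf1 in only 3 of the 8 fits (up to 0.183), and ADK1, adenylate kinase, lost its snf1 call without replicate 1 (0.0599).

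Of the deaminases beside AAH1, GUD1, guanine deaminase, averaged 0.50 in cdc14-3 snf1 and 0.49 in cdc14-3 (adjusted p = 0.0145 and 0.0408), against 0.03 in snf1 (adjusted p = 0.885), and AMD1, AMP deaminase, passed in no strain (0.03, -0.13 and -0.28, adjusted p = 0.882, 0.547 and 0.102). The call of GUD1 in cdc14-3 snf1 was lost without any 1 of its 3 arrays (adjusted p up to 0.0713), and that in cdc14-3 was lost in 6 of the 8 fits (adjusted p up to 0.327). Neither gene had the large negative ratios of AAH1.

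For uptake, FCY2, the permease for adenine, guanine, hypoxanthine and cytosine, averaged -1.71 in cdc14-3 snf1 and -1.99 in snf1, both past the test, and -0.98 in cdc14-3 (adjusted p = 0.0645). FCY22, a paralog of FCY2, averaged 0.63 in cdc14-3 snf1 and 0.78 in snf1, both past the test, and 0.19 in cdc14-3 (adjusted p = 0.58). The call of FCY22 in cdc14-3 snf1 was lost without any 1 of its 3 arrays, and that in snf1 without replicate 1 (adjusted p up to 0.136 and 0.0574). FCY21 fell in snf1 (-0.48, adjusted p = 0.0176), a call lost without snf1 replicate 1 or 2 (adjusted p up to 0.0703). It did not pass in cdc14-3 snf1 (-0.07, adjusted p = 0.711) or cdc14-3 (0.26, adjusted p = 0.262). FCY21 and FCY22 are close paralogs whose probes may share signal.

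In the one-carbon list, 4 of 7 fell in cdc14-3 snf1, 3 in cdc14-3 and 3 in snf1. SHM2, the cytosolic serine hydroxymethyltransferase, averaged -1.56 in cdc14-3 snf1, -1.71 in cdc14-3 and -0.90 in snf1. SHM1, the mitochondrial enzyme, averaged -0.58, -1.07 and -0.23, and did not pass in snf1 (adjusted p = 0.193). Without snf1 replicate 1 the 3 calls in snf1 came to 1, with those of SHM2 and GCV3, a glycine decarboxylase subunit, lost (adjusted p = 0.0814 and 0.128). Without cdc14-3 snf1 replicate 2 the 4 calls in that strain came to 2, with those of SHM1 and GCV3 lost (adjusted p up to 0.0768 and 0.206), and the GCV3 call there was kept in only 2 of the 8 fits. The glycine decarboxylase genes GCV1 and GCV2 passed in no strain.

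HIS1, HIS4 and HIS7 belong to histidine synthesis, which releases an intermediate of the purine pathway and whose genes Bas1 also acts on. HIS1 averaged -2.38 in cdc14-3 snf1, -2.35 in cdc14-3 and -1.52 in snf1, and all 3 calls held with any 1 array left out. HIS4 averaged -1.83 and -2.16 in cdc14-3 snf1 and cdc14-3, past the test in both, and -0.66 in snf1 (adjusted p = 0.117). The call of HIS4 in cdc14-3 was lost without cdc14-3 replicate 2 (adjusted p = 0.0664).

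BAS1, which encodes the activator itself, fell in all 3 strains, with log2 ratios of -1.09, -1.65 and -0.88 in cdc14-3 snf1, -1.44 and -1.29 in cdc14-3 and -1.15, -0.90 and -1.16 in snf1. The means were -1.21, -1.37 and -1.07 (limma adjusted p = 0.00047, 0.000561 and 0.000624), each call held with any 1 array left out, and no pair of strains differed past the test (adjusted p = 0.868, 0.755 and 0.405). PHO2, its partner, rose, with means of 0.48, 0.45 and 0.76 in cdc14-3 snf1, cdc14-3 and snf1 (adjusted p = 0.01, 0.0362 and 0.00103). The PHO2 calls in cdc14-3 snf1 and cdc14-3 were lost without cdc14-3 snf1 replicate 1 or 3 and without any of cdc14-3 replicates 2 and 3 and cdc14-3 snf1 replicate 3 (adjusted p up to 0.0587 and 0.329).

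SAF1 encodes the F-box protein that marks the Aah1 protein for breakdown when yeast enters quiescence. Its log2 ratios were 0.35, 0.98 and 0.73 in cdc14-3 snf1, 1.32 and 1.27 in cdc14-3 and 0.66, -0.10 and -0.00 in snf1. The mean of SAF1 was highest in cdc14-3 and lowest in snf1, the opposite order to AAH1 RNA. It rose in cdc14-3 snf1 (0.69, adjusted p = 0.0102) and in cdc14-3 (1.30, adjusted p = 0.00141) and did not pass in snf1 (0.18, adjusted p = 0.392), and the call in cdc14-3 snf1 was lost without replicate 2 or 3 (adjusted p up to 0.0775). These arrays measured RNA and hold nothing on the Aah1 protein.

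**Figure D5:**
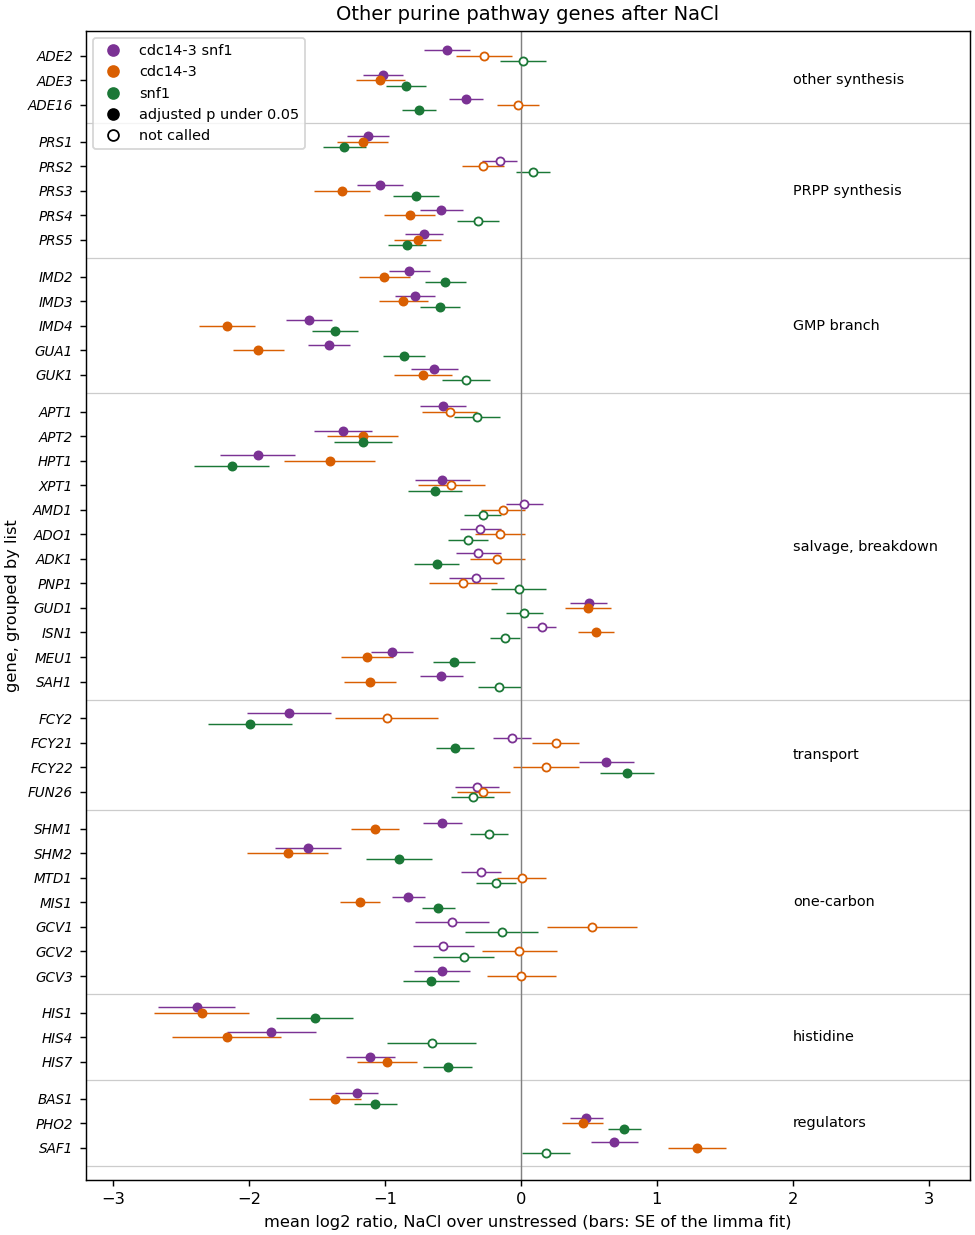
Mean log2 ratio (x axis) of the 42 other purine pathway genes in 3 strains, grouped by list, with bars for the SE of the limma fit; filled points passed an adjusted p of 0.05 over 6135 features. Most filled points lie below 0 (27 of 31 in cdc14-3 snf1, 21 of 25 in cdc14-3 and 22 of 24 in snf1), and PHO2, SAF1, GUD1, ISN1 and FCY22 hold the filled points above 0.

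Between strains, few of the 42 genes passed. For cdc14-3 snf1 minus cdc14-3, limma called 0 (3 at an unadjusted p under 0.05), with 0.0489% of all features called. For cdc14-3 snf1 minus snf1 it called 0 as well (4 at an unadjusted p under 0.05), with 0% of all features called. On the 6 arrays of 2 h alone, that second comparison had 8 calls, lower for ADE2, GUA1, MEU1, SAH1, HIS4 and HIS7 and higher for GUD1 and SAF1, when 22.7% of all features were called. HIS4 and SAF1 were at -1.76 and 0.91 in that fit (adjusted p = 0.0465 and 0.0143).

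For cdc14-3 minus snf1, limma called 7 of the 42, which is 16.7%, beside 18.9% of all features. Of the 7, 3 were lower, beside 10.2% of all features, and 4 higher, beside 8.74%. GUA1 was lower by 1.07 (SE 0.25, adjusted p = 0.0192), SAH1 by 0.95 (SE 0.25, adjusted p = 0.0305) and SHM1 by 0.84 (SE 0.22, adjusted p = 0.0319). SAF1 was higher by 1.11 (SE 0.28, adjusted p = 0.025), FCY21 by 0.74 (SE 0.22, adjusted p = 0.0458), ADE16 by 0.73 (SE 0.20, adjusted p = 0.0344) and ISN1, an IMP nucleotidase, by 0.67 (SE 0.17, adjusted p = 0.0293). The count rests on single arrays: it dropped to 0 in limma when cdc14-3 replicate 2, cdc14-3 replicate 3 or snf1 replicate 2 was left out (7, 10 and 11 at an unadjusted p under 0.05). Omitting snf1 replicate 3 gave 1, omitting replicate 3 of cdc14-3 snf1 gave 2, and omitting snf1 replicate 1 gave 14. With the 2 h arrays alone it was 17, which held all 7, beside 37.4% of all features. The share of all features called is not given here for the fits that left out 1 array. Those counts therefore do not tell a shift of the 42 genes from a shift of all features.

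Pyrimidine synthesis, the sister pathway, was set beside the purine genes. In cdc14-3 snf1, 5 of 8 URA genes fell, in cdc14-3 6 and in snf1 3, and URA10, a minor orotate phosphoribosyltransferase, rose in each (0.65, 2.13 and 0.83). Of all features, 25.5%, 22.0% and 27.0% fell in those strains, and 20.6%, 18.3% and 24.3% rose. The URA10 call in cdc14-3 snf1 was lost without its replicate 1 or 2 (adjusted p up to 0.0768). In cdc14-3, URA4 kept its call in only 2 of the 8 fits with 1 array left out (adjusted p up to 0.281) and URA6 lost its own without either cdc14-3 array (up to 0.167), as it did in snf1 without replicate 1 (0.0554). Between strains, 3 of the 8 passed for cdc14-3 minus snf1, URA1 and URA7 lower and URA10 higher, beside 18.9% of all features (10.2% lower and 8.74% higher). In each of the other pairs limma called 0 of the 8 (2 at an unadjusted p under 0.05 in each). Of all features it called 0.0489% for cdc14-3 snf1 minus cdc14-3 and 0% for cdc14-3 snf1 minus snf1. All 3 calls were lost without cdc14-3 replicate 2, with adjusted p up to 0.101 for URA1, 0.0671 for URA7 and 0.148 for URA10, and that of URA1 also without cdc14-3 replicate 3. URA7, CTP synthase, had -1.07, -1.95 and -1.84 in cdc14-3 snf1, -3.01 and -2.87 in cdc14-3 and -0.77, -0.05 and -0.12 in snf1, the same order of strains as AAH1. Its difference for cdc14-3 minus snf1 was -2.63 (SE 0.31, limma adjusted p = 0.00435), close in size to the -2.66 of AAH1.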

How the data were processed

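The authors hybridised cDNA of NaCl-treated and unstressed cells, 1 dye each, to whole-genome tiled 2-colour arrays and deposited 1 normalized log ratio per feature and array, taken here as log2, each array centred on a median of about 0. How probes were combined, the normalization steps and the genome build are not given in the sources used here. No further scaling was applied, and 0 columns of sample values were left unused. Gene symbols came from RefSeq through the locus tag (5984 of 6868 matched).

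The members and the gene lists were chosen with earlier results of these data known. Members were described by values, means and SDs. The 42 other purine and 8 pyrimidine genes were tested in limma 3.58.1 (R 4.3.3; 1 mean per strain, eBayes, all 8 arrays) on 6135 features with at least 2 values per strain, with Benjamini-Hochberg adjustment and a threshold of 0.05. The script was tested on simulated data. Named were all members, ADE2, ADE3, ADE16, BAS1, PHO2 and SAF1, genes called in a difference between strains, up to 4 per list with the largest response and their paralogs, and the 5 genes most correlated with AAH1 or the ADE mean. GUD1, AMD1, GUK1, MEU1, SAH1, GCV1, GCV2, GCV3, XPT1, ADK1, URA4, URA6 and the genes called on the 2 h arrays were named after their values were seen where that rule did not name them. Alternatives left out each array, the 90 min arrays or the filter, added heat time or replicate number, rescaled or weighted arrays, or fitted 2 strains at a time. The number of arrays limits the precision.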

Additional observations from a re-analysis of the deposited data

Results flagged for a closer look

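A tested difference between strains in the NaCl response was found for 7 of the 42 other purine genes, all for cdc14-3 minus snf1 (16.7%, beside 18.9% of all 6135 features), and none of the 7 calls held in every fit that left out 1 array. Relative to snf1, the log2 ratio of cdc14-3 was higher for ADE16 (0.73), ISN1 (0.67), FCY21 (0.74) and SAF1 (1.11), and lower for GUA1 (-1.07), SAH1 (-0.95) and SHM1 (-0.84). Over 15 other settings, the limma adjusted p ran from 0.00183 to 0.174 for SAF1, from 0.00252 to 0.148 for GUA1 and from 0.0209 to 0.272 for FCY21, and GUA1 and SAF1 passed in 11 of the 15, FCY21 in 6. None of the 7 turned its sign in any of them.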

How the results depend on the processing

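The AAH1 values kept their direction in all alternatives run, and 77 of 78 moved by less than the spread between replicates. The exception was cdc14-3 snf1 minus snf1, at -2.07 on the 2 h arrays. Many of the 78 could not move, since leaving out an array of one strain leaves the mean of another strain unchanged. AAH1 was also picked for its depth on these arrays, so the count is no test of its response. The median of the ADE genes in cdc14-3 ran from -1.0 to -0.90 as each array was left out, and that of their difference for cdc14-3 snf1 minus cdc14-3 from -0.28 to 0.18, across 0. Leaving out each array gave 14 to 28 calls among the 42 genes for the response in cdc14-3, 0 to 2 for cdc14-3 snf1 minus snf1 and 0 to 14 for cdc14-3 minus snf1 (7 at an unadjusted p under 0.05 in limma without cdc14-3 replicate 2, 10 without cdc14-3 replicate 3 and 11 without snf1 replicate 2, where the count was 0). For cdc14-3 snf1 minus snf1, the 2 h arrays gave 8 calls and array weights 5. For cdc14-3 minus snf1, the 2 h arrays gave 17 calls, array weights 16, arrays scaled to one median absolute deviation 11 and a fit of only the 2 strains compared 4. Shares of all features called are given, further above, only for the 2 h arrays. The counts of the other settings therefore do not tell a shift of the 42 genes from a shift of all features. The cause of these shifts was not tested.

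Deviations of same-numbered arrays from their strain means correlated at -0.212 to 0.264 over 7 pairs. Those of differently numbered arrays correlated at -0.264 to 0.212. With only 2 cdc14-3 arrays, the deviations of one mirror those of the other, so these values do not settle whether the numbers pair the samples. The replicate block gave 4 calls for cdc14-3 minus snf1 and moved no other count past 1.5 times.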
